A study of Homo sapiens with 6 samples.

Results

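A group of 8 enzymes, most of them of asparagine, proline, alanine and cysteine synthesis, was followed in H460 cells after knockdown of the long noncoding transcript *HKlincR1*. They were ASNS, CBS, CTH, PYCR1, ALDH18A1, GPT2, GOT1 and PCK2, which make up 8 of the 57773 genes in the deposited expression values. The rows were found by matching Ensembl gene identifiers to these symbols through GENCODE v44 mapped to GRCh37. The list itself was chosen from genes whose difference between siHKlincR1 and siNT in these same libraries was already known. The differences given here for the 8 enzymes are therefore a description. No p-value is printed for any of the 8, and nothing is read from which of them passed a threshold. All 8 averaged 0.5 RPKM or more across libraries and were therefore among the 15451 genes tested. RPKM is the number of reads on a gene per kilobase of its length scaled to the sequencing depth of the library.

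H460 cells are an established human line derived from a non-small-cell lung cancer. The siNT group held 3 libraries from cells given a non-targeting control siRNA, and the siHKlincR1 group held 3 libraries from cells given an siRNA against AC093323.3, another name of *HKlincR1*. Both groups received 50 nM siRNA with the same lipid reagent for 48 hours and were prepared as biological triplicates of polyA RNA. As all libraries came from 1 cell line and siHKlincR1 was compared with a single control siRNA, effects of the siRNA other than loss of *HKlincR1* cannot be told apart from it. Across the libraries, the epithelial keratins KRT8 and KRT18 were at 28.1 to 32.1 and 78.9 to 88.5 RPKM, while the epithelial gene EPCAM did not exceed 0.110 RPKM and the lung lineage genes NKX2-1 and SFTPC did not exceed 0.0253 and 0.0103 RPKM.

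Asparagine synthetase (ASNS) makes asparagine from aspartate and glutamine. GOT1, the cytosolic aspartate aminotransferase, and GPT2, the mitochondrial alanine aminotransferase, move amino groups between glutamate and the carbon skeletons of aspartate and alanine. ALDH18A1 and PYCR1 catalyse early and final steps of proline synthesis from glutamate in mitochondria. Cystathionine beta-synthase (CBS) and cystathionine gamma-lyase (CTH) form the transsulfuration route that turns homocysteine into cysteine. PCK2, the mitochondrial phosphoenolpyruvate carboxykinase, feeds carbon from the citric acid cycle towards phosphoenolpyruvate. Several of these genes are textbook targets of ATF4, the transcription factor induced when amino acids run short, which binds composite C/EBP-ATF elements with C/EBP partners.

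Promoter windows of 300 bases, from 250 bases before to 50 bases after a transcription start, were taken from RefSeq (GRCh38.p14) to show where such an element occurs. Windows were present for 6 of the 8 enzymes, 9 windows in all, and PYCR1 and GPT2 had none in the table. The motif searched was TGATGNAA on both strands, which was present in 3.62% of all 35116 windows and in 2 of the 9 enzyme windows. One of the 2 ASNS windows held it on the gene strand, starting 68 bases before the transcription start. The GOT1 window held it on the other strand, starting 198 bases before the start. The windows of ASNS and GOT1 are printed with the match in capitals, and those of PCK2 and ALDH18A1, which held no match, because PCK2 followed ASNS most closely across libraries and ALDH18A1 least. Each is written 5′ to 3′ on the gene strand. A match describes letters in this window and nothing more, and a window with no match shows only that these letters do not occur in it.

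ASNS, chr7:97872359-97872658, minus strand: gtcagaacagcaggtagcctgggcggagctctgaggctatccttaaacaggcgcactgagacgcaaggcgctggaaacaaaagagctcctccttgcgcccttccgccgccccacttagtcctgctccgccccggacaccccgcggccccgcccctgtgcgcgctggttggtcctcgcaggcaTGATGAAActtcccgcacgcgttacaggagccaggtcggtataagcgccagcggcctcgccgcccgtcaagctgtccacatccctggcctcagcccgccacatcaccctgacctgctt

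GOT1, chr10:99430575-99430874, minus strand: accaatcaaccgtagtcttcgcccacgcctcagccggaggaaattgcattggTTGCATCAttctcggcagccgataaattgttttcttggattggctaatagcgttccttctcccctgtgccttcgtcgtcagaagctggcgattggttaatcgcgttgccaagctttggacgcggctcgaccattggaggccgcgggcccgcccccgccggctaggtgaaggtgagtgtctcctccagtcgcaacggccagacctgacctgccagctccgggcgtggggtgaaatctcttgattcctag

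PCK2, chr14:24094061-24094360, plus strand: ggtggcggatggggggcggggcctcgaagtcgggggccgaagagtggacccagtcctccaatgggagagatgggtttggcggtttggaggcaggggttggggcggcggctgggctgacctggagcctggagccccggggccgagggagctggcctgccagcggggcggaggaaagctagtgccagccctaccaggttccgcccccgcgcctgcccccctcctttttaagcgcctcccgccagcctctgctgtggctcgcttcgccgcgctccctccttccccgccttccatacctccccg

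ALDH18A1, chr10:95656662-95656961, minus strand: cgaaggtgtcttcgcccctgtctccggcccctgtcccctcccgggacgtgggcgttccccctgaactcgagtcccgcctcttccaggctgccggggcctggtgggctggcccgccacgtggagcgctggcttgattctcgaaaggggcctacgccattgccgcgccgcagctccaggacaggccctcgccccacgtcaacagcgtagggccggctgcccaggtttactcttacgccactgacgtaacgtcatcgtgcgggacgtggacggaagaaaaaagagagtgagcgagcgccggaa

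The targeted transcript was examined first. *HKlincR1* was at 3.62, 3.47 and 3.83 RPKM in the siNT libraries and at 0.563, 0.628 and 0.390 RPKM in the siHKlincR1 libraries, a reduction of the mean by 85.5% with no overlap (p = 0.10 by exact permutation, two-sided, which is the lower limit for 3 libraries against 3). Library totals worked back from the RPKM values ranged from 24980280 to 30521000 reads, lowest in siNT replicate 3. The members' reads ranged from 304, for PCK2 in siNT replicate 3, to 14008, for ASNS in siHKlincR1 replicate 2.

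The libraries numbered 3 held the lowest value of their group for 7 of the 8 enzymes, in both groups. Over the tested genes, deviations from the group means correlated weakly between same-numbered libraries, at 0.142, 0.137 and 0.266. For siNT replicate 1 with siHKlincR1 replicate 2 the correlation was 0.113, so replicates 1 and 2 were little told apart. The replicate numbers were taken as pairing the libraries, although the sources do not state what same-numbered libraries shared. Values from limma are therefore given both without a block and with the replicate number entered as one. In bulk RNA, a lower value in fewer cells and a lower value in every cell cannot be told apart.

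In the siNT libraries alone, levels per length ran from PYCR1 to PCK2. PYCR1 was highest at 61.4 ± 3.80 RPKM, followed by ALDH18A1 at 45.6 ± 0.668, GOT1 at 40.6 ± 5.24 and ASNS at 33.8 ± 16.7 RPKM (SD, n = 3). The other 4 enzymes were lower, with CTH at 9.64 ± 3.22, GPT2 at 8.84 ± 2.65, CBS at 7.58 ± 2.74 and PCK2 at 5.77 ± 2.49 RPKM (SD, n = 3). The ranges of PYCR1 and ALDH18A1 did not overlap, nor did those of ALDH18A1 and GOT1 or of ASNS and CTH. GOT1 overlapped ASNS, and CTH, GPT2, CBS and PCK2 each overlapped the next in the order. PYCR1 was at percentile 95.5 of the tested genes and PCK2 at percentile 53.5.

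ASNS showed the widest spread within siNT. Its levels in siNT replicates 1, 2 and 3 were 43.5, 43.4 and 14.5 RPKM (5375, 5900 and 1617 reads). In siHKlincR1 they were 96.1, 108.7 and 39.7 RPKM (12183, 14008 and 5297 reads). Replicate 3 was the lowest library in each group, and siHKlincR1 replicate 3 fell below siNT replicates 1 and 2, so the groups overlapped. Within same-numbered pairs the gene was nonetheless higher with siHKlincR1 by 2.21, 2.51 and 2.73 fold. The log2 difference between the group means was 1.30, with a standard error of 0.52 without the block and 0.07 with it.

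GOT1, which supplies or consumes cytosolic aspartate, varied less. It was at 43.9, 43.4 and 34.6 RPKM with siNT and at 60.2, 57.3 and 41.8 RPKM with siHKlincR1. The libraries numbered 3 were again the lowest, and siHKlincR1 replicate 3 lay below siNT replicates 1 and 2. The folds within pairs were 1.37, 1.32 and 1.21, and the log2 difference was 0.38 (standard error 0.16, and 0.06 with the block).

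GPT2, which links alanine to glutamate in mitochondria, was at 10.1, 10.7 and 5.80 RPKM with siNT. With siHKlincR1 it was at 15.8, 13.5 and 10.4 RPKM, so that replicate 3 of siHKlincR1 lay below replicate 2 of siNT. The folds within pairs were 1.57, 1.26 and 1.79 and the log2 difference was 0.60 (standard error 0.25, and 0.10 with the block).

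The proline enzymes had the smallest differences of the 8. PYCR1, the reductase that forms proline, was at 65.0, 61.6 and 57.5 RPKM with siNT and at 81.7, 80.6 and 64.4 RPKM with siHKlincR1, where only replicate 3 fell inside the siNT range. Its folds within pairs were 1.26, 1.31 and 1.12, and its log2 difference was 0.29 (standard error 0.11, and 0.06 with the block). ALDH18A1, which makes the pyrroline-5-carboxylate precursor, was the steadiest member. It was at 44.9, 45.8 and 46.2 RPKM with siNT and at 51.6, 51.2 and 50.4 RPKM with siHKlincR1. It was the 1 enzyme of the 8 for which every siHKlincR1 library was above every siNT library, a pattern found in 10.1% of all tested genes. Its log2 difference was also the smallest of the 8, at 0.16 (standard error 0.06, and 0.05 with the block).

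Both transsulfuration enzymes followed the pattern of ASNS. CBS, which condenses homocysteine with serine, was at 9.05, 9.28 and 4.42 RPKM with siNT and at 19.5, 23.2 and 8.93 RPKM with siHKlincR1. Its siHKlincR1 replicate 3 thus lay just under siNT replicates 1 and 2, while the folds within pairs were 2.16, 2.50 and 2.02. CTH, which releases cysteine from cystathionine, was at 11.6, 11.4 and 5.92 RPKM with siNT and at 16.4, 19.6 and 10.0 RPKM with siHKlincR1. Again siHKlincR1 replicate 3 was below the siNT libraries 1 and 2, and the folds within pairs were 1.41, 1.72 and 1.70. The log2 differences were 1.14 for CBS (standard error 0.41, and 0.08 with the block) and 0.68 for CTH (standard error 0.32, and 0.08 with the block).

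PCK2 had the lowest level of the 8 enzymes in siNT. Its siNT levels were 7.48, 6.91 and 2.91 RPKM (869, 884 and 304 reads). Its siHKlincR1 levels were 14.7, 17.0 and 6.42 RPKM (1750, 2057 and 805 reads). As for ASNS, replicate 3 of each group was the lowest and the groups overlapped. The folds within pairs were 1.96, 2.46 and 2.21, and the log2 difference was 1.12 (standard error 0.46, and 0.08 with the block).

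**Figure D1:**
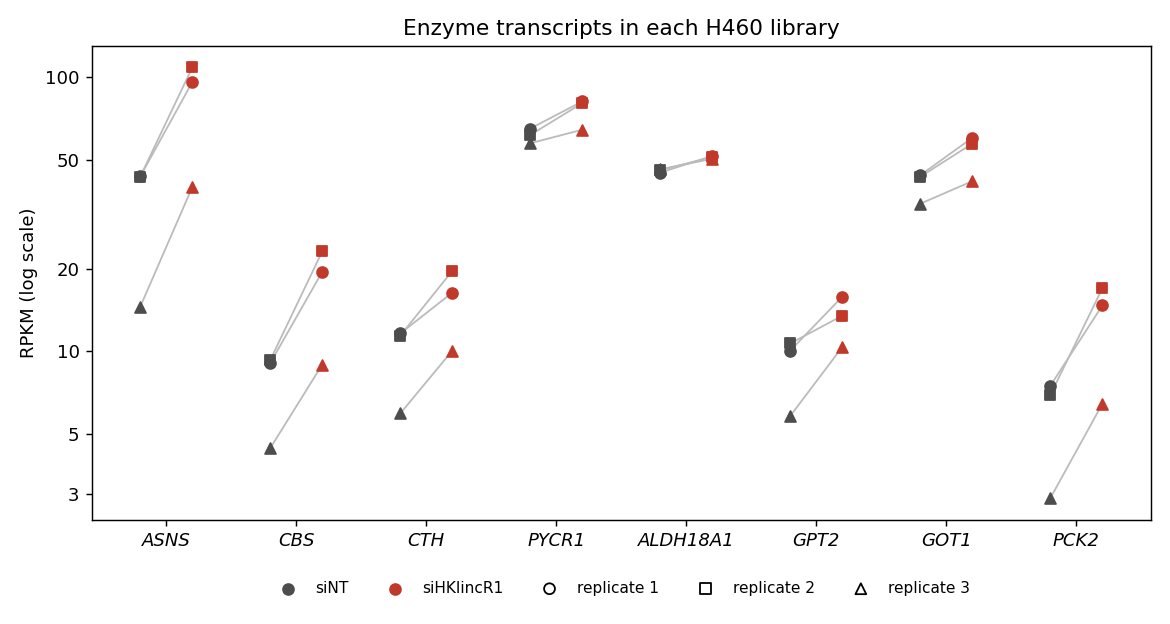
RPKM of each enzyme (log axis) in the siNT libraries (grey) and siHKlincR1 libraries (red), with symbols for the replicate number and lines joining same-numbered libraries. Every line rises, and the triangles of replicate 3 lie lowest in both groups for every enzyme but ALDH18A1 in siNT.

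Across the list, all 8 enzymes were higher with siHKlincR1 in all 3 same-numbered pairs, which held for 24.0% of all tested genes, and their median log2 difference was 0.64 against 0.00 over all tested genes. Without the block, 0 of the 8 met an adjusted p under 0.05 with a fold above 1.5 in limma, where 0.00647% of all genes were called higher and 0.356% lower. At an unadjusted p under 0.05 in the same fit, 7 of the 8 were higher, beside 7.04% of all tested genes. With the block, 4 of the 8 were called higher (ASNS, CBS, CTH and PCK2), where 0.511% of all genes were called higher and 0.809% lower. GOT1 met the adjusted p but not the fold in that fit. With the block, 4, 3 and 3 enzymes were called when the libraries numbered 1, 2 and 3 were left out in turn. Over all tested genes 56, 14 and 122 were called higher in those fits, which rest on fewer of the same libraries. Because the list was put together with this contrast known, nothing is read from any of these counts.

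**Figure D2:**
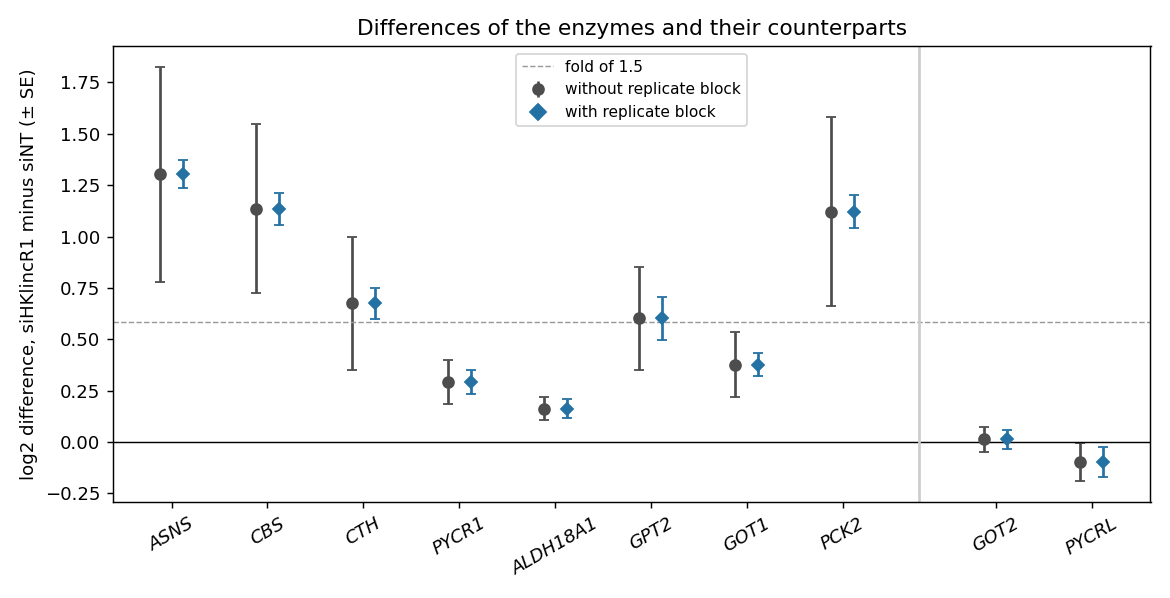
Log2 difference between siHKlincR1 and siNT (bars: standard error) for the 8 enzymes and, right of the line, GOT2 and PYCRL. Circles are from limma without the replicate block and diamonds with it. The differences are the same in both fits, while the standard error of ASNS falls from 0.52 to 0.07.

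The spread of each enzyme over the 6 libraries was divided on the log2 scale into a share that followed the siRNA, a share that followed the replicate number and a remainder. For ASNS the shares were 46.8%, 52.8% and 0.425%, and for PCK2 46.0%, 53.4% and 0.622%. The replicate number thus carried about as much of their spread as the siRNA did. For CTH the replicate share was the larger, at 60.0% against 38.5%, and for PYCR1 the smaller, at 35.0% against 58.9%. For ALDH18A1 the shares were unlike these, with 96.3% following the siRNA and 0.172% the replicate number. Over all tested genes the median shares were 26.0%, 41.2% and 18.2%.

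The libraries numbered 3, looked at separately because of the values seen, were low in both groups. Within siNT, replicate 3 was at 0.335 times the mean of the other libraries for ASNS, 0.404 for PCK2, 0.483 for CBS, 0.515 for CTH and 0.560 for GPT2. Ratios for GOT1, PYCR1 and ALDH18A1 were 0.792, 0.907 and 1.02. Within siHKlincR1 the corresponding ratios were 0.388 for ASNS, 0.406 for PCK2, 0.419 for CBS, 0.558 for CTH and 0.708 for GPT2, and 0.711, 0.794 and 0.980 for GOT1, PYCR1 and ALDH18A1. ASNS, PCK2 and CBS were the lowest 3 in each group, and ALDH18A1 was within a few percent of the other libraries in both. On the log2 scale, replicate 3 minus the mean of the other libraries was also ranked among all tested genes. ASNS was at percentile 0.531 in siNT and 0.777 in siHKlincR1. Not all of the enzymes were that extreme. GOT1 was at percentiles 11.4 and 8.43, PYCR1 at 27.9 and 15.0, and ALDH18A1 at 56.3 and 46.1. siNT replicate 3 had the lowest total of its group and siHKlincR1 replicate 3 the highest of its own, at 24980280 and 29926414 reads. The part of depth in the low values was not tested.

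Deviations from the group means, which leave out the difference between siRNAs, moved together among the enzymes. Over the 6 libraries the Pearson correlation of ASNS was 1.00 with PCK2, 0.99 with CTH, 0.99 with CBS, 0.95 with GOT1, 0.94 with GPT2 and 0.87 with PYCR1. Among the 21 pairs without ALDH18A1 it lay between 0.77 and 1.00, with a median of 0.94. ALDH18A1 stood outside this group, with correlations from -0.09 to 0.25 in its 7 pairs. These values describe 6 libraries that share 3 replicate numbers, and for 7 of the 8 enzymes the largest deviation in each group was in the library numbered 3. Of all tested genes, 13.2% correlated with ASNS at 0.85 or above and 0.544% at 0.99 or above.

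**Figure D3:**
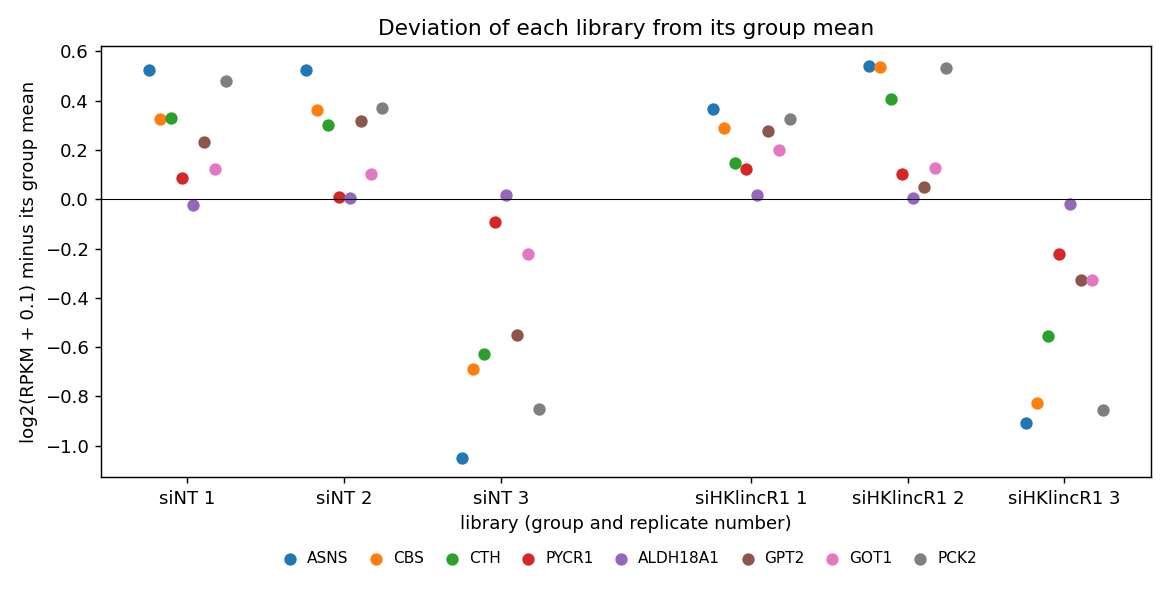
Deviation of log2(RPKM + 0.1) from the mean of its own group, for each enzyme (colours) in each library (horizontal axis). In replicate 3 of both groups, ASNS, CBS and PCK2 lie at -0.69 or lower, whereas ALDH18A1 lies between -0.02 and 0.02 in every library.

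The genes whose whole profile over the 6 libraries was most like that of ASNS were sought among 13393 other genes averaging 1 RPKM or more, the 8 enzymes left out. They were LINC02806, a long noncoding RNA (Pearson r = 0.9995), CARS1, the cytosolic cysteinyl-tRNA synthetase (0.9984), DDIT3, the stress-induced transcription factor CHOP (0.9979), SLC7A1, a cationic amino acid transporter (0.9978), and NRDC, a metalloprotease (0.9978). LINC02806 rested on 8 to 169 reads per library. It was at 0.939, 0.871 and 0.167 RPKM with siNT and at 2.73, 3.05 and 0.801 RPKM with siHKlincR1, which is the ordering of ASNS at a lower level. A high correlation did not require a large difference, since the log2 difference of NRDC was 0.09. A correlation of 0.99 was reached by 45 of the 13393 genes (0.336%). Among the other enzymes the correlation with ASNS was 0.998 for PCK2, 0.993 for CTH and 0.991 for CBS. It was 0.974 for GOT1, 0.970 for GPT2, 0.934 for PYCR1 and 0.665 for ALDH18A1. The whole profile includes the difference between siRNAs, which was known when the enzymes were chosen, so nothing is read from these values.

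Genes that carry out the same reactions in another compartment, or as close paralogs, were not part of the choice, and GOT2 and PYCRL among them could be tested. GOT2, the mitochondrial counterpart of GOT1, was more abundant, at 114.0 ± 1.59 RPKM with siNT and 115.1 ± 4.83 RPKM with siHKlincR1 (SD, n = 3). Its log2 difference was 0.01 (standard error 0.06, limma adjusted p = 0.926, and 0.880 with the block), a size whose sign changed with the scaling. Within pairs the log2 difference of GOT1 exceeded that of GOT2 by 0.42, 0.44 and 0.23. PYCRL (current symbol PYCR3), the cytosolic paralog of PYCR1, had a log2 difference of -0.10 (limma adjusted p = 0.610, blocked 0.443). The counterparts of GPT2 and PCK2 were nearly absent and too low to test. GPT, the cytosolic alanine aminotransferase, had 2 to 12 reads per library, and PCK1, the cytosolic carboxykinase, had at most 1 read. Per length, GPT did not exceed 0.151 RPKM where GPT2 was at 5.80 RPKM or more.

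Neighbouring steps were followed in lists of 77 further genes, written from known pathway membership, at a time when earlier results of these data were known. Of these, 53 were tested and 24 were too low. Without the block 0 of the 53 were called in either direction by limma, and 15 had an unadjusted p under 0.05, beside 16.2% of all tested genes in either direction. With the block 1 was called, and it was higher, beside 0.511% of all genes. That gene was PSAT1, the aminotransferase of serine synthesis. It was at 178.8, 173.2 and 101.4 RPKM with siNT and at 283.1, 258.6 and 171.3 RPKM with siHKlincR1, with a log2 difference of 0.67 (limma adjusted p = 0.296, blocked 0.0160). PSAT1 thus had the low values in replicate 3 seen for ASNS. The median log2 difference of the 53 genes was 0.07.

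By pathway, 0 of the 10 tested genes of asparagine and aspartate metabolism were called in either fit. Their median log2 difference was 0.09, and the largest difference was in ASS1, argininosuccinate synthase. ASS1 was at 9.42, 9.22 and 6.94 RPKM with siNT and at 16.1, 19.6 and 7.58 RPKM with siHKlincR1, a log2 difference of 0.66 (limma adjusted p = 0.360, blocked 0.107). It was called without siHKlincR1 replicate 3, and with the block without both libraries numbered 3. The next largest was in ASRGL1, an asparaginase, with -0.42 (limma adjusted p = 0.265, blocked 0.160). ASRGL1 was a low transcript, at 1.38 ± 0.0224 RPKM with siNT and 1.02 ± 0.149 RPKM with siHKlincR1 (SD, n = 3), and its groups did not overlap.

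In proline, ornithine and glutamate metabolism 0 of 10 tested genes were called in either fit, with a median log2 difference of 0.08. The largest differences were 0.46 in ARG2, the mitochondrial arginase (limma adjusted p = 0.309, blocked 0.0687), and -0.44 in GLUL, glutamine synthetase (0.344, and 0.207 with the block). Proline dehydrogenase, which opposes the synthesis, was too low to test for PRODH and PRODH2. In the methionine cycle, cysteine and glutathione list 0 of 17 tested genes were called in either fit, with a median of 0.08 and a range from -0.26 to 0.22. TST, a sulfur transferase, and AHCYL2 had the largest sizes, with -0.26 and -0.23 (limma adjusted p = 0.292 and 0.393). The log2 differences of CBS and CTH, which were chosen with their values known, were above this range. Aminotransferases other than the members had a median of 0.13 over 7 tested genes. Gluconeogenesis, anaplerosis and the malate shuttle had 0 of 10 tested genes called in either fit and a median of -0.10. There, PC, pyruvate carboxylase, had a log2 difference of -0.27 (limma adjusted p = 0.243, blocked 0.0934) and ME1, malic enzyme, of 0.21 (0.237, and 0.0748 with the block).

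Regulators of the amino acid stress response were the 1 list with several calls. This list too was written when earlier results of these data were known, so nothing is read from its counts. Of 12 tested, 0 were called without the block. With it, DDIT3, TRIB3 and CEBPG were called higher, beside 0.511% of all tested genes. Their log2 differences were 0.96, 0.64 and 0.74 (limma adjusted p = 0.0138 each with the block, and 0.302, 0.320 and 0.266 without). Without the libraries numbered 2, 1 of the 12 was called with the block. CEBPG encodes a dimer partner of ATF4, and TRIB3 a pseudokinase that ATF4 and CHOP induce. ATF4 itself was at 190.8, 193.0 and 155.5 RPKM with siNT and at 210.1, 207.7 and 195.6 RPKM with siHKlincR1. Every siHKlincR1 library was above every siNT library, as in 10.1% of all tested genes. The log2 difference of 0.19 did not pass (limma adjusted p = 0.358, blocked 0.134). EIF2AK1, a kinase that phosphorylates eIF2alpha, was singled out after its values were seen. Its log2 difference was -0.32, and it met the adjusted p but not the fold with the block (limma adjusted p = 0.101, blocked 0.0493).

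**Figure D4:**
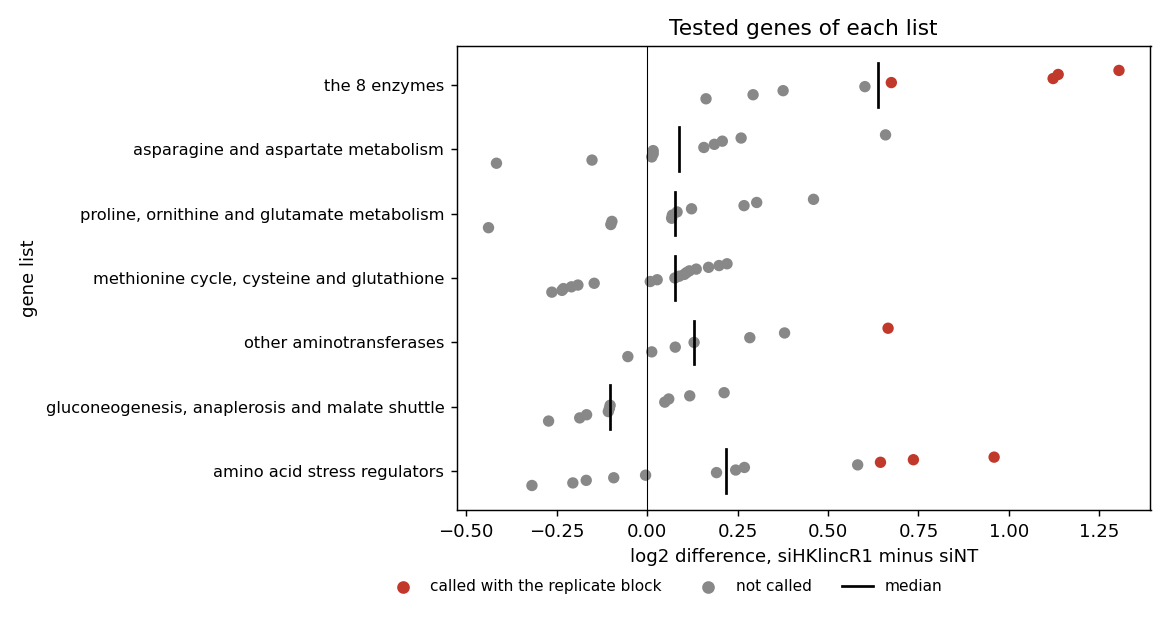
Log2 difference between siHKlincR1 and siNT for the tested genes of each list, one point per gene, with the list median as a black bar. Red points were called with the replicate block. They are 4 of the 8 enzymes, PSAT1 among the other aminotransferases and 3 stress regulators, while the other lists have medians between -0.10 and 0.09.

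The siRNA used for these libraries was siHKlincR1_2, according to the methods of the study, and the enzymes were searched for matches to it. The letters in capitals are those that a transcript must hold to pair with positions 2 to 8 (the seed) of the strand complementary to the one printed.

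siHKlincR1_2: gaaguauacucGUGUGCUu

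In the 3′ UTR of the longest annotated transcript, 0 of the 8 enzymes held the site GTGTGCT of siHKlincR1_2, which 14.9% of 10774 tested genes held. These UTRs ranged from 66 nt in PCK2 to 2291 nt in GPT2. For the members whose annotated position overlaps another gene, that neighbour was low. ASNS (chromosome 7, 97480989 to 97501854, GRCh37) overlaps a processed pseudogene on the other strand at no more than 0.189 RPKM on average, and PCK2 (chromosome 14, 24563262 to 24579807) overlaps NRL on the other strand at 0.236 RPKM with siNT. PYCR1 (chromosome 17, 79890260 to 79900288) overlaps 3 genes at up to 0.0650 RPKM on average. CBS (chromosome 21, 44473301 to 44497053), CTH (chromosome 1, 70876901 to 70905534), ALDH18A1 (chromosome 10, 97365698 to 97416468), GOT1 (chromosome 10, 101156627 to 101190381) and GPT2 (chromosome 16, 46918274 to 46965201) overlap no other gene listed in the expression values.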

How the data were processed

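RNA was measured by polyA sequencing in 3 siNT and 3 siHKlincR1 libraries of H460 cells. The deposited values are RPKM per Ensembl gene, which the authors computed from reads counted with featureCounts on Ensembl v74 gene models. The submitters' processing notes name CASAVA 1.8.2 and GRCh37. The aligner and the strand setting of the counting are not given in the sources used here. RPKM divides by library total, so a gene's value depends on all others. Reads per gene were worked back from the smallest steps of the values, to give depth and for the voom alternative. No fold is printed here for values under 3 reads.

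Values were analysed as log2(RPKM + 0.1), so that differences of low genes are understated. limma 3.58.1 in R 4.3.3 (trended variance, Benjamini-Hochberg adjustment) was fitted to the 15451 genes averaging 0.5 RPKM or more. Calls required both a fold above 1.5 and an adjusted p below 0.05. The script was tested on simulated data. Same-numbered libraries correlated in their deviations from the group means at 0.142, 0.137 and 0.266, against -0.209 to 0.113 for different numbers. The pairing comes from these values and the replicate label, and values with the replicate number as a block are given beside the results.

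The 8 enzymes and the pathway lists were chosen with earlier results of these data known. Genes named beside them were the targeted gene, GOT2, GPT, PCK1, PYCRL, ATF4, the called genes of each list or else the 2 with the largest absolute difference, and the 5 genes most correlated with ASNS. A further gene of this rule is not reported here. Alternatives were other pseudocounts, filters, scalings, variance models and thresholds, voom on the reads, the block, and each library left out.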

Additional observations from a re-analysis of the deposited data

How the results depend on the processing

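The 8 enzymes kept a positive log2 difference under all alternatives tried, from 0.78 to 1.76 for ASNS and from 0.14 to 0.20 for ALDH18A1, but whether they were called depended on the fit. Against 0 called, 4 were called with the replicate block and 4 with the block and median-ratio scaling, and between 0 and 1 when single libraries were left out (CBS, without siHKlincR1 replicate 3). With the block and same-numbered pairs left out, 3 to 4 were called. The alternatives that joined the block with a left-out pair or another scaling were chosen after seeing the data.

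Over all genes, 55 were called lower and 1 higher. Lower calls numbered 34 with no filter on low values, 16 with no variance trend, 87 with voom, 125 with the block, 122 with the block and median-ratio scaling, 7 to 314 with single libraries left out, and 24 to 183 with the block and pairs left out. Higher calls numbered 0 with a pseudocount of 0.01, 12 with no filter, 2 with voom, 2 by adjusted p alone, 79 with the block, 77 with the block and median-ratio scaling, 0 to 204 with single libraries left out, and 14, 56 and 122 with the block and pairs 2, 1 and 3 left out. The highest counts came without siHKlincR1 replicate 3. The cause was not tested.

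Among other aminotransferases, 1 gene was called in each fit with the block, pairs left out included. Among stress regulators, 3 were called with the block, 3 with the block and median-ratio scaling, and 1 to 3 with pairs left out, 1 being the count without the libraries numbered 2. In asparagine and aspartate metabolism, 0 to 1 were called with libraries left out. GOT2 changed sign, from 0.01 to -0.003 with quantile normalization, -0.015 without siHKlincR1 replicate 3 (up to 0.045 with other single libraries left out) and -0.003 with the block without replicate 3. The reduction of *HKlincR1* stayed between 83.6% and 86.9%. With 3 libraries a group and 1 siRNA, the number of libraries limits these comparisons, and each enzyme had at least 304 reads per library.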
